A study of Mus musculus with 9 samples.

Results

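Among CD11b+ cells sorted from mouse gut, 833 carried the transcripts of cytotoxic T cells, and these cells are described here across 9 libraries of single cell UMI counts. They were chosen by their counts in 3 steps from 31759 cells with at most 15% mitochondrial UMIs and at least 200 genes. Each had at least 2 UMIs of Cd3d, Cd3e and Cd3g together, at least 1 UMI of Cd8a, Cd8b1 or Gzma, fewer than 5 UMIs of Lyz2 and 0 UMIs of Cd79a, and they made up 2.62% of the cells. A UMI is the tag of 1 captured RNA molecule, so a count is the number of molecules read for a gene in a cell. All libraries came from CD11b+ lamina propria cells of male C57BL/6 mice 7 to 8 weeks old. SPF colon (2 libraries), germ-free (GF) colon (2) and small intestine of normal mice (2) were replicated. Colon of mice given ampicillin (1 g/L), vancomycin (0.5 g/L), neomycin (1 g/L) and metronidazole (1 g/L) in the drinking water for 1 week or sometimes longer, colon of mice given 2.5% DSS for 7 days, and colon of DSS-treated mice whose label reads Nlrc4 deficient had 1 library each. The study describes cells pooled from several mice and a colon preparation that also took in submucosa and muscularis. It does so for colon of wild-type and knockout mice, and describes no germ-free, antibiotics, DSS, Nlrc4-deficient or small intestine libraries. The labels name the lamina propria only and give no number of mice, so p-values measure only the spread between libraries, which may be technical.

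Cytotoxic T cells kill infected or stressed cells by releasing granules that hold perforin, which opens the target's membrane, and granzymes, the proteases that enter it. In the gut they lie mostly in and under the epithelium, where many use the gamma-delta T cell receptor or carry CD8 as an alpha-alpha pair, while conventional CD8 T cells use the alpha-beta receptor and CD8 as an alpha-beta pair. Resident cells hold on to the epithelium through the integrin alpha-E, coded by Itgae, and reach the small intestine through the chemokine receptor CCR9. Cells that still circulate through lymph nodes use CCR7 and the transcription factors LEF1 and TCF1 (Tcf7).

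The libraries held 13243317 to 64453601 UMIs, of which 227496 to 2018782 came from the cytotoxic T cells. These cells had a median of 5733 UMIs, with library medians from 4543 in the antibiotics library to 8146.5 in the DSS library. The highest cell reached 34561 UMIs, 33 cells were over 20000 and 2 were under 1000. Pairs of libraries shared 0 to 18 cell barcodes, and 8 of the 833 cells carried a barcode also seen in another library. Scrublet called 0.419% of all cells doublets, too few to have worked, so doublets were kept; 3 of the calls were cytotoxic T cells. The replicates of a group were not alike. Over 7944 genes, log CPM of the cytotoxic T cells in SPF colon library 1 correlated at 0.878 with SPF colon library 2 but at 0.940 and 0.931 with the small intestine libraries and at 0.947 with the DSS library. The GF colon libraries correlated at 0.863 with each other, and GF colon library 2 at 0.905 with SPF colon library 2. All these points share the rule and the 9 libraries, and depth differs between them. In SPF colon library 2, 555 of the 566 UMIs of the fibroblast and stromal genes Col3a1, Dcn, Sparc and Adamdec1 lay in 2 of its 81 cytotoxic T cells, while the other libraries held 0 to 10 such UMIs each.

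The label was checked against its markers. Receptor constant genes (Trac, Trbc1 or Trbc2) had a UMI in 98.8% of the cells, and Ncr1, which marks NK cells, in 0.84%. Nkg7, a protein of cytotoxic granules, had a UMI in 81.8%, the chemokine gene Ccl5 in 79.1%, and granzyme B (Gzmb) in 55.7%. The same genes had a UMI in 31.6%, 29.0% and 25.8% of 617 CD4 helper T cells of the same libraries, whose median depth was 4914 UMIs. Helper T cells were chosen to have no Cd8a, Cd8b1 or Gzma UMI, so lower shares of genes that go along with Gzma are in part fixed by that choice. In 6495 B cells, which should lack Nkg7, Ccl5 and Gzmb and had a median of 5291 UMIs, the shares were 0.400%, 8.56% and 0.985%. In 251 NK cells, with a median of 6048 UMIs, the shares were higher than in cytotoxic T cells, at 94.8%, 91.2% and 76.1%. These genes therefore do not set the cytotoxic T cells apart from NK cells. The label did not hold equally in every library: in GF colon library 2, Gzmb had a UMI in 4.48% and Nkg7 in 43.3% of 67 cells. With each cell thinned to 1000 UMIs, Gzmb was seen in 2.99% of the cells of that library and in 19.5% to 54.9% of those of the other 8. Cd4 had a UMI in 10.4% of all the cells and in 21.6% of those of the DSS library, which were the deepest. Thinned to 1000 UMIs, Cd4 was seen in 2.65% of all the cells, 3.65% of those of the DSS library and 4.84% of those of the antibiotics library. Foxp3, the regulatory T cell factor, had a UMI in 2.16% without thinning. Itgam, the gene of the CD11b protein the sort was made on, had a UMI in 17.2%, against 41.4% of the 251 NK cells and 9.78% of the B cells. Thinned to 1000 UMIs, it was seen in 2.77%, 15.5% and 1.78%, so that the cytotoxic T cells lay near the B cells. In SPF colon library 1 the share without thinning was 19.9% in cytotoxic T cells and 22.8% in B cells.

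The cells entered the set by different routes, and the route differed between libraries. Cd8a and Cd8b1 together were seen in 28.1%, Cd8a without Cd8b1 in 33.3%, Cd8b1 without Cd8a in 13.2%, and Gzma without either in 25.5%. Gzma alone brought in 33.8% of the cells in SPF colon library 1, 35.1% in the DSS library and 29.4% and 36.4% in the small intestine, but 9.88% in SPF colon library 2 and 17.1% and 7.46% in GF colon. Gzma was also seen in B cells, which should lack it. Of all B cells, 8.28% had a Gzma UMI, from 0.621% in GF colon library 2 to 17.4% in small intestine library 1. The B cells of these libraries differed in depth, with medians of 3456 and 16624 UMIs. Thinned to the depth used above, the shares were 0.897% of all B cells, 0.155% in GF colon library 2 and 1.71% in small intestine library 1. The thinned shares ran from 0% in GF colon library 1 to 2.27% in SPF colon library 1. Only 55 of the 833 cells (6.60%) rested on a single Gzma UMI with no Cd8a or Cd8b1, and results without them are given in the closing section. Just inside the CD3 threshold, 62 cells with exactly 2 CD3 UMIs had a Gzmb UMI in 30.6%, an Nkg7 UMI in 61.3% and an alpha or beta receptor constant UMI in 95.2%. Just outside it, 83 cells with exactly 1 CD3 UMI had them in 37.3%, 56.6% and 85.5%.

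Trdc, the constant gene of the delta receptor chain (chr14:54142851-54148868, plus strand, GRCm38), took no part in the rule. It had a UMI in 117 of the 833 cells (14.0%), against 0.246% of B cells and 0.324% of helper T cells. It was also seen in 19.9% of NK cells, so a Trdc UMI alone does not identify a gamma-delta receptor. By library the share was 35.3% and 8.64% in SPF colon, 7.32% and 1.49% in GF colon, 29.4% and 19.5% in small intestine, 8.06% with antibiotics, 9.28% with DSS and 4.03% in the library labelled Nlrc4 deficient. Without thinning, SPF colon library 1 and the small intestine libraries stood above all others. Thinned to 1000 UMIs per cell, SPF colon gave 18.4% and 3.70%, GF colon 2.44% and 0%, small intestine 17.6% and 5.19%, antibiotics 4.84%, DSS 5.73% and the library labelled Nlrc4 deficient 0.806%, so that small intestine library 2 lay below the DSS library. Mki67, expressed by dividing cells, had a UMI in 24.3% and 17.3% of cells in SPF colon, 2.44% and 8.96% in GF colon, 35.3% and 10.4% in small intestine, 6.45% with antibiotics, 39.2% with DSS and 6.45% in the library labelled Nlrc4 deficient. These shares were not thinned, and the DSS library was the deepest.

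**Figure D1:**
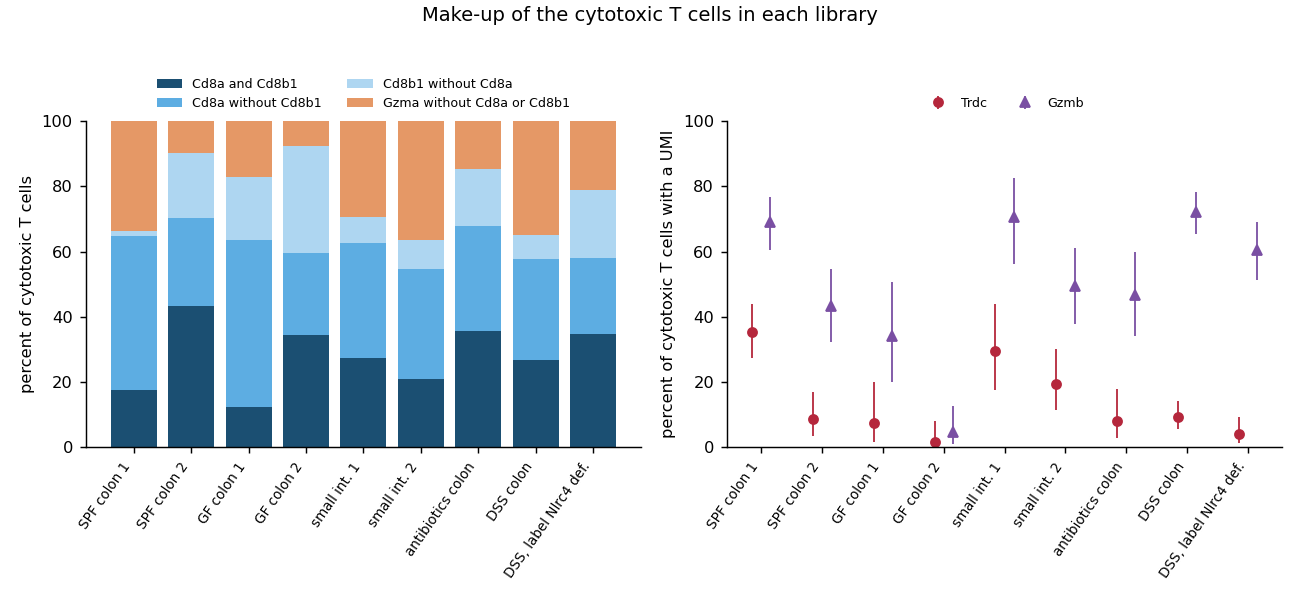
Left, the percent of cytotoxic T cells in each library that carried Cd8a and Cd8b1, Cd8a only, Cd8b1 only or Gzma only; right, the percent with a UMI of Trdc and of Gzmb, with exact 95% binomial intervals that cover counting error only. GF colon library 2 has the lowest share of Gzmb (4.48%), and SPF colon library 1 has the highest share of Trdc (35.3%).

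Levels were read as CPM, the counts of a gene scaled to the same total in each library, from the UMIs summed over the cytotoxic T cells of a library. In such sums, fewer cells that express a gene and less RNA of it per cell cannot be told apart. Gzmb (chr14:56258838-56262260, minus strand) stood at 1945 and 532 CPM in SPF colon, 958 and 69.1 in GF colon, 2213 and 2019 in small intestine, 427 with antibiotics, 2684 with DSS and 914 in the library labelled Nlrc4 deficient. Gzma, which the rule used, stood at 14880 and 1485 CPM in SPF colon, 6079 and 47.5 in GF colon, 16121 and 16360.5 in small intestine, 1723 with antibiotics, 5386 with DSS and 2798 in the library labelled Nlrc4 deficient. Gzmb was highest in the DSS library and lowest in GF colon library 2, with SPF colon library 1 and the small intestine libraries next to DSS. The Gzma level is in part set by the rule, which let in different shares of cells through Gzma alone, and is given as a description. The order of Gzmb may follow these shares as well. They were largest in the DSS library, SPF colon library 1 and the small intestine libraries (29.4% to 36.4%) and smallest in GF colon library 2 (7.46%). Their part in the Gzmb levels was not tested. Itgae (chr11:73090583-73147446, plus strand) was at 625 and 109 CPM in SPF colon, 264 and 45.4 in GF colon, 316.5 and 519 in small intestine and 77.4 to 132 in the 3 treated libraries. Ccr7 (chr11:99144196-99155077, minus strand) was at 51.7 and 486 CPM in SPF colon, 176 and 777 in GF colon, 48.7 and 328 in small intestine, 257 with antibiotics, 57.0 with DSS and 144 in the library labelled Nlrc4 deficient. Ccr7 was thus highest in GF colon library 2, where Gzmb was lowest, but small intestine library 2 was high in both, and the DSS library was low in both Itgae and Ccr7.

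**Figure D2:**
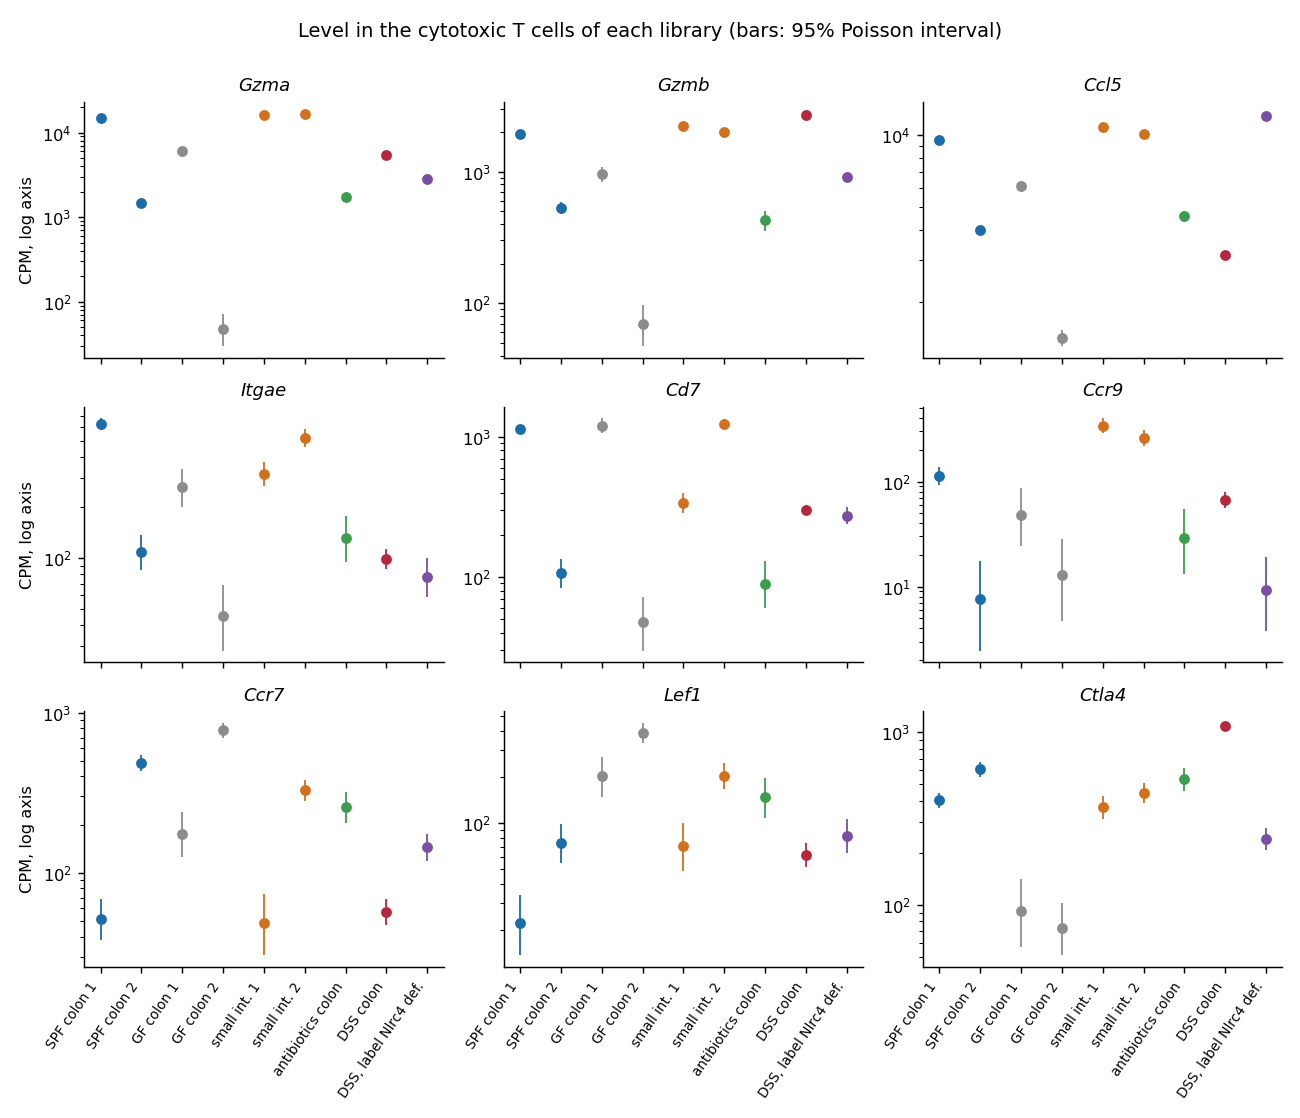
Each panel shows 1 gene, the level in CPM over the cytotoxic T cells of each of the 9 libraries on a log axis, with exact 95% Poisson intervals that cover counting error only. Gzma, Gzmb, Ccl5, Itgae and Cd7 are high in SPF colon library 1 and low in GF colon library 2, whereas Ccr7 and Lef1 are highest in GF colon library 2.

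Small intestine was set against SPF colon to ask how the cells differ between gut segments. The chemokine receptor gene Ccr9 (chr9:123678439-123784330, plus strand) stood at 341 and 259 CPM in small intestine and at 113 and 7.55 CPM in SPF colon, and the GF colon libraries were at 48.4 and 13.0. The groups did not overlap, and the fold change was 2.31 on the log2 scale (SE 0.884). By edgeR's quasi-likelihood test the unadjusted p was 0.0294 and, adjusted over all genes, 0.9995. The perforin gene Prf1 was at 47.9 ± 8.29 CPM (SD, n = 2) in small intestine and 22.9 ± 0.379 in SPF colon, a log2 fold change of 1.11, and the receptor beta constant gene Trbc1 at 694.5 ± 7.02 and 389.5 ± 91.6, a log2 fold change of 0.88. Neither passed after adjustment. In the same fit, 0 of 6152 genes (0%) were higher and 0 (0%) lower at a false discovery rate of 0.05, the smallest adjusted p was 0.377 and 105 genes had an unadjusted p under 0.05. DESeq2 called 0 higher and 2 lower, Gm42418 and Lars2.

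Members of the gene lists differed in direction. Of 13 interferon response genes tested, 1 had a higher mean in small intestine, the median log2 fold change was -0.77 against -0.01 over all genes, and in 12 of them both small intestine libraries lay below both SPF colon libraries. Over all 6152 genes the groups did not overlap in 1773 (28.8%). Ly6a, an interferon-induced surface protein of T cells, stood at 39.8 and 5.76 CPM in small intestine and 66.4 and 113 in SPF colon, a log2 fold change of -1.92 that was -3.86 without small intestine library 1 and -1.07 without small intestine library 2. Gbp2, which codes for a guanylate-binding protein, stood at 37.6 and 34.6 CPM against 82.2 and 86.1, a log2 fold change of -1.16. Granule genes had a higher mean in 7 of 13 with a median of 0.13, gut homing genes in 6 of 8 with a median of 0.11, cell cycle genes in 10 of 13 with a median of 0.22 and receptor constant genes in 7 of 7 with a median of 0.28. None of these genes passed the test.

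Both SPF colon libraries shape this comparison. Without SPF colon library 1, Ccr9 differed by 5.35 on the log2 scale (adjusted p = 0.0331, edgeR's quasi-likelihood test) and 11 genes were called lower, and without SPF colon library 2 the Ccr9 value was 1.44 and no gene was called. The 11 genes were Lmna, which codes for nuclear lamins A and C, the interferon-inducible Ifi205 and the stromal genes Col3a1, Col1a1, Col1a2, Dcn, Dpt, Mgp, Postn, Sparc and Adamdec1, 4 of which are those that 2 cells of SPF colon library 2 carried. Lmna stood at 35.4 and 44.2 CPM in small intestine and 130 and 299 in SPF colon, a log2 fold change of -2.35, which was -2.81 without SPF colon library 1 and -1.67 without SPF colon library 2. Gm42418, a locus that overlaps ribosomal RNA sequence and whose count is uncertain for that reason, was at 3825 and 5178 CPM in small intestine and 13165 and 12317 in SPF colon, a log2 fold change of -1.45. Plasma cell transcripts moved with single libraries and not with the segment: the 5 plasma cell genes summed to 13818 and 584.5 CPM in SPF colon and 14691 and 1295 CPM in small intestine.

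Cytotoxic T cells made up 1.40% and 1.41% of the cells in small intestine and 5.20% and 3.33% in SPF colon. The mean was 1.40% ± 0.00845 (SD, n = 2) against 4.27% ± 1.32, a difference of -2.86 points, with a two-sided exact permutation p = 0.33, the smallest that 2 against 2 libraries can give. Thinned to 1000 UMIs per cell, the means were 0.546% ± 0.150 and 1.88% ± 1.50. Such shares depend on the other cells sorted. B cells were 1580 of 3654 and 1743 of 5470 cells in small intestine, and 355 of 2615 and 392 of 2431 in SPF colon. The part of B cells in the difference was not tested. Of the T cells with at least 2 CD3 UMIs, 58.6% and 43.5% were cytotoxic in small intestine and 63.8% and 35.2% in SPF colon, where the groups overlapped. The share with a Trdc UMI was 24.4% ± 7.02 in small intestine and 22.0% ± 18.8 in SPF colon (exact permutation p = 1), and it was lower in small intestine when SPF colon library 2 or small intestine library 1 was left out.

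Germ-free colon was set against SPF colon, using the same SPF libraries, to ask what the cells are like without a microbiota. Ctla4 (chr1:60887000-60915832, plus strand), an inhibitory receptor induced when T cells are activated, stood at 92.3 and 73.4 CPM in GF colon and at 403 and 606 in SPF colon. The groups did not overlap and the small intestine libraries, at 367 and 446, lay with SPF colon. The log2 fold change was -2.46 (SE 0.349, unadjusted p = 7.89e-05 and adjusted p = 0.485, edgeR's quasi-likelihood test), DESeq2 gave an adjusted p of 2.19e-05, and with the replicate number as a block edgeR gave 0.00891. Nothing in the labels ties libraries that share a replicate number, so values with the block have no stated basis in the design. Lef1 (chr3:131110471-131224356, plus strand) stood at 202 and 387 CPM in GF colon and 22.1 and 74.0 in SPF colon, a log2 fold change of 2.83 (SE 0.666, adjusted p = 0.582 by edgeR and, with the block, 0.00346). S1pr1, the receptor that lets T cells leave tissue for the lymph, stood at 136 and 382 CPM against 69.6 and 113, a log2 fold change of 1.70 that was 2.25 without GF colon library 1 and 0.73 without GF colon library 2. In this comparison edgeR called 0 of 6152 genes (0%) higher and 0 (0%) lower, with 420 genes at an unadjusted p under 0.05. DESeq2 called 5 genes higher (Lef1 and the ribosomal protein genes Rpl12, Rps27, Rps15a and Rps7) and 2 lower (Ctla4 and Serpinb9), and the replicate block 2 higher and 6 lower.

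Whole lists leaned one way in GF colon. All 11 naive and recirculating genes tested had a higher mean, with a median log2 fold change of 1.04 against -0.05 over all genes. Of these, 2 genes, Lef1 and S1pr1, did not overlap between the groups. The naive list summed to 725 and 2480 CPM in SPF colon and to 4215 CPM in GF colon library 2. GF colon library 1 lay between the SPF colon libraries, so that the naive sums overlapped. All 13 cell cycle genes had a lower mean with a median of -1.45, and 11 did not overlap. All 13 interferon response genes were lower in mean with a median of -1.31, and 9 did not overlap. Over all genes 2316 (37.6%) did not overlap, so non-overlap by itself was common. Top2a, a topoisomerase of dividing cells, stood at 39.6 and 34.5 CPM in GF colon against 257 and 103 in SPF colon. Granule genes had a lower mean in 12 of 13 with a median of -0.85, and 5 did not overlap, near the share over all genes. The list summed to 4633 and 1985 CPM in GF colon against 6343 and 4458 in SPF colon, so that the sums overlapped. Among them granzyme K (Gzmk) stood at 4.40 and 4.32 CPM against 72.7 and 49.8, a log2 fold change of -3.61 whose size is uncertain because the GF values rest on very few UMIs. Fas ligand (Fasl) stood at 65.9 and 43.2 against 126.5 and 145, a log2 fold change of -1.20. The 4 inhibitory receptor genes tested all had a lower mean, with a median of -1.48. None of these passed edgeR's test after adjustment. Rps27, a ribosomal protein gene, stood at 8229 and 10227.5 CPM against 4472 and 4322.5.

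In other genes the GF colon libraries lay far apart. Nkg7 stood at 672.5 and 168 CPM in GF colon and 1075 and 557 in SPF colon, and Cd7 at 1204 and 47.5 against 1143 and 107. Free or other RNA moved with the groups too: the 5 plasma cell genes summed to 268 and 108 CPM in GF colon, against 13818 and 584.5 CPM in SPF colon, with a median log2 fold change of -5.29. That size rests on SPF colon library 1: without it the log2 fold change of Igha went from -4.93 to -1.63 and that of Jchain from -6.46 to -2.28. Igha alone had a UMI in 43.9% and 29.9% of the cytotoxic T cells against 97.1% and 86.4% in SPF colon. Its part in the results was not tested. Cytotoxic T cells made up 2.83% and 2.35% of the cells in GF colon, a mean of 2.59% ± 0.335 (SD, n = 2) against 4.27% ± 1.32, a difference of -1.68 points (exact permutation p = 0.33, the smallest possible, and p = 0.667 on cells thinned to 1000 UMIs). The share with a Trdc UMI was 4.40% ± 4.12 against 22.0% ± 18.8, a difference of -17.6 points (exact permutation p = 0.33) that came to -4.24 points without SPF colon library 1.

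The nearest other T cells of the same libraries were 617 helper T cells, with at least 1 Cd4 UMI and no Cd8a, Cd8b1 or Gzma. Pairing the classes within each of the 9 libraries, with the library as a block, asked which genes set the cytotoxic cells apart. The genes that defined the classes were not tested, and since the classes were drawn from the same counts, genes that go along with those markers had to differ. In edgeR, 223 of 5234 genes (4.26%) were higher and 312 (5.96%) lower in cytotoxic T cells. Spry2 (chr14:105891947-105896819, minus strand), an inhibitor of receptor tyrosine kinase signalling, was higher in 9 of 9 libraries, at 30.2 to 294 CPM against 0 to 6.15, with a log2 fold change of 5.63 (SE 0.379, adjusted p = 7.37e-09, edgeR's quasi-likelihood test). Cd7 (chr11:121036747-121039418, minus strand), a surface receptor of T and NK cells, was at 47.5 to 1245 CPM against 0 to 20.6, a log2 fold change of 5.37 (SE 0.331, adjusted p = 4.65e-09). The carbonic anhydrase gene Car2 was at 32.4 to 392 CPM against 0 to 10.3, a log2 fold change of 4.52. In each of these 3 genes no helper T cell sum reached the lowest cytotoxic one. Ccl5 (chr11:83525778-83530518, minus strand), a chemokine that draws T cells and monocytes, was at 1417 to 11987 CPM against 0 to 1809, a log2 fold change of 4.11 (SE 0.375, adjusted p = 2.95e-07).

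By role, receptors and adaptors shared with NK cells were higher in 8 of the 8 genes tested and lower in none, with a median log2 fold change of 2.11 against 0.02 over all genes. They were Klrd1 (3.41), which pairs with NKG2 chains at the surface, Klrc1 and Klrc2 (2.07 and 3.01), which code for such chains and are so alike that reads may be split between them, Klrk1 (2.00), Cd160 (2.95), and the signalling adaptors Fcer1g (2.15), Tyrobp (1.73) and Hcst. Granule genes were higher in 8 of 10 tested with none lower: Gzmb by 2.33 (SE 0.375, adjusted p = 0.000243 in edgeR, 9 of 9 libraries), Nkg7 by 2.50, cathepsin W (Ctsw) by 2.65, the granzyme inhibitors Serpinb9 and Serpinb6b by 1.61 and 1.79, and Fasl by 1.20. Without the library block Gzmb was not called (adjusted p = 0.0608 in edgeR). Since helper T cells had no Gzma UMI by choice, granule genes that go along with Gzma had to differ. Their values are given as a description. Of the residency list 4 of 11 were higher, Cd7, Jaml (2.74), the collagen-binding integrin Itga1 (2.42) and Itgae (2.06), and Hopx was lower. The chemokine Xcl1, which draws cross-presenting dendritic cells, was higher by 4.11, and Ly6c2, a surface antigen of memory CD8 T cells, by 3.40. Tbx21, the factor of type 1 immunity, was higher by 0.71 (adjusted p = 0.0423 in edgeR), a call lost when SPF colon library 1, the antibiotics library or either small intestine library was left out (adjusted p = 0.0780 to 0.101).

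Genes of help and regulation were lower. Il10 (chr1:131019845-131024974, plus strand), the anti-inflammatory cytokine, was at 4.40 to 52.9 CPM in cytotoxic T cells and 0 to 756 in helper T cells, lower in 8 of 9 libraries with GF colon library 1 as the exception, with a log2 fold change of -3.61 (SE 0.267, adjusted p = 1.95e-08, edgeR's quasi-likelihood test). Maf, a factor that drives Il10, was at 35.8 to 231 CPM against 340 to 1482, a log2 fold change of -2.97, and Foxp3 at 0 to 25.7 against 37.3 to 213, a log2 fold change of -3.15. All 5 helper genes tested were lower with a median of -2.64, among them Cd40lg, which licenses B cells, and Tnfrsf4 (-2.64), a costimulatory receptor. Ctla4 was lower by 1.81 on the log2 scale in 9 of 9 libraries, from 73.4 to 1078 CPM against 484 to 3214. Receptor signalling genes were higher in 1 of 14 (Ptpn22) and lower in 8 (Zap70, Lat, Cd247, Sh2d1a, Cd2, Cd5, Cd6 and Cd28), the last 3 being co-receptors that tune or costimulate the receptor signal. Of the naive list, Ccr7, Il7r, S1pr1 and Satb1 were lower and Ly6c2 higher of 10 tested. Cell cycle genes were called in 0 of 8. Interferon response genes were lower in 4 of 12, among them Igtp (-1.05) and Ly6a (-1.29), and no member was higher. Igha differed by 0.39 on the log2 scale (adjusted p = 0.452 in edgeR).

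**Figure D3:**
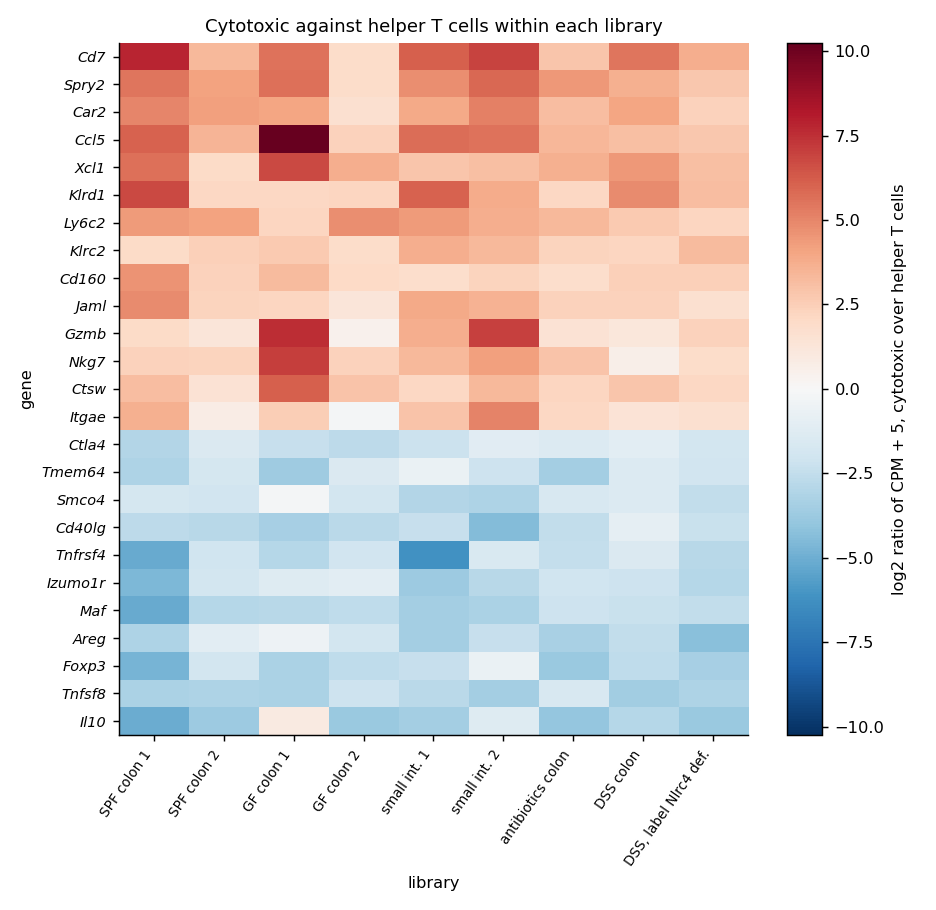
Heat map of the log2 ratio of CPM + 5 in cytotoxic T cells to that in helper T cells, for 25 genes in rows and the 9 libraries in columns, with genes higher in cytotoxic T cells above and lower ones below. Spry2, Cd7, Car2 and Ccl5 are higher in cytotoxic T cells in 9 of 9 libraries, and Ctla4 and Foxp3 are lower in 9 of 9. The last column is the library labelled Nlrc4 deficient.

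Within the cytotoxic T cells, those with a Trdc UMI and no Cd8b1 were set against those with Cd8b1 and no Trdc. Of 105 and 332 such cells, 90 and 127 lay in the 4 libraries with at least 10 of each: SPF colon library 1, both small intestine libraries and the DSS library. With the library as a block, edgeR called 40 of 2245 genes (1.78%) higher and 27 (1.2%) lower in the Trdc cells. A Trdc cell without Cd8b1 could enter only through a Cd8a or Gzma UMI, which the Cd8b1 cells did not need, so that genes that go along with Gzma may be higher in the Trdc cells by that choice alone. The receptor genes followed the split. The gamma constant genes Tcrg-C1, Tcrg-C2 and Tcrg-C4, similar copies among which reads may be split, were higher by 5.97, 2.48 and 3.81 on the log2 scale (Tcrg-C2 was not called without the DSS library, adjusted p = 0.0719 in edgeR, nor Tcrg-C4 by DESeq2, adjusted p = 0.127), and the alpha constant gene Trac was lower by 2.15.

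Fcer1g (chr1:171229572-171234365, minus strand), an adaptor that carries an activating motif, was at 487 CPM in Trdc cells and 32.1 in Cd8b1 cells of SPF colon library 1. In small intestine it was at 420 against 0 and at 949 against 13.7, and in the DSS library at 772 against 14.0. The lowest Trdc value lay far above the highest Cd8b1 value, and the log2 fold change was 5.54 (SE 0.391, adjusted p = 1.17e-06, edgeR's quasi-likelihood test). Its partner adaptor Tyrobp (chr7:30413760-30417585, plus strand) was higher by 4.82. Cd7 was at 1349, 533, 1268 and 650.5 CPM in the Trdc cells and at 193, 73.8, 130 and 38.3 in the Cd8b1 cells, in the order SPF colon library 1, small intestine libraries 1 and 2, and DSS, a log2 fold change of 3.28. Spry2 (4.57) and Car2 (4.12), which also led the comparison with helper T cells, were higher here as well, as was Ikzf2 (3.23), which codes for the transcription factor Helios.

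Genes of residency and of the gut were higher in the Trdc cells in 4 of 9 and 2 of 5 tested and lower in none. Itgae was at 841, 619, 646.5 and 373 CPM in the same order of libraries against 305, 81.2, 116 and 12.8, a log2 fold change of 2.73. Ccr9 was at 184, 603, 445 and 225.5 CPM against 16.1, 44.3, 287 and 38.3, a log2 fold change of 2.23, so that the Trdc cells of each library lay above the Cd8b1 cells of that library, while the Cd8b1 cells of small intestine library 2 lay above the Trdc cells of colon. Gzmb was at 1970, 3589, 2065 and 4562 CPM against 482, 1262, 321 and 3077.5, a log2 fold change of 1.62, given as a description because of that choice. Ctsw, Itga1, Cd96, Cd244 and Gpr55 were higher, with calls in edgeR that were lost without the DSS library (adjusted p = 0.0636 to 0.148) and without small intestine library 2 (adjusted p = 0.0770 to 0.205), and for Ctsw without SPF colon library 1 (adjusted p = 0.0541).

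Co-receptors and recirculation genes were lower in the Trdc cells. Cd5 (chr19:10717116-10739002, minus strand), which dampens receptor signalling, had 0 UMIs in the Trdc cells of all 4 libraries and 144 UMIs in the Cd8b1 cells, at 96.5, 125, 88.8 and 130 CPM. Against a floor of 3 counts over the group, it was at least 30.5-fold lower. Cd28 (chr1:60716800-60773359, plus strand), the main costimulatory receptor, was at 44.6, 53.8, 218 and 17.3 CPM in the Trdc cells and at 394, 576, 1332 and 973 in the Cd8b1 cells, a log2 fold change of -3.40. Cd6 (-4.60) and Cd2 (-2.88) were lower too, and of 13 receptor signalling genes 5 were lower and none higher. Of 7 naive and recirculating genes 5 were lower: Ccr7 (-4.71), Ly6c2 (-4.04), Lef1 (-1.98), Tcf7 (-1.78) and Satb1 (-1.67). In edgeR the call of Tcf7 was lost with any 1 of the 4 libraries left out (adjusted p = 0.0567 to 0.0734), that of Lef1 without small intestine library 2 (adjusted p = 0.197), and that of Satb1 without that library or SPF colon library 1 (adjusted p = 0.223 and 0.0995). The interferon gamma gene Ifng was at 107, 108, 126 and 104 CPM in the Trdc cells against 474, 1048, 171 and 219, a log2 fold change of -1.90 (adjusted p = 0.00858 in edgeR, 0.0521 without SPF colon library 1). Cell cycle genes were called in 0 of 9. Igha, at a log2 fold change of 0.09, did not separate the subsets (adjusted p = 0.892 in edgeR). The number of genes called fell to 25 higher and 17 lower without small intestine library 2, and to 17 lower without SPF colon library 1.

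**Figure D4:**
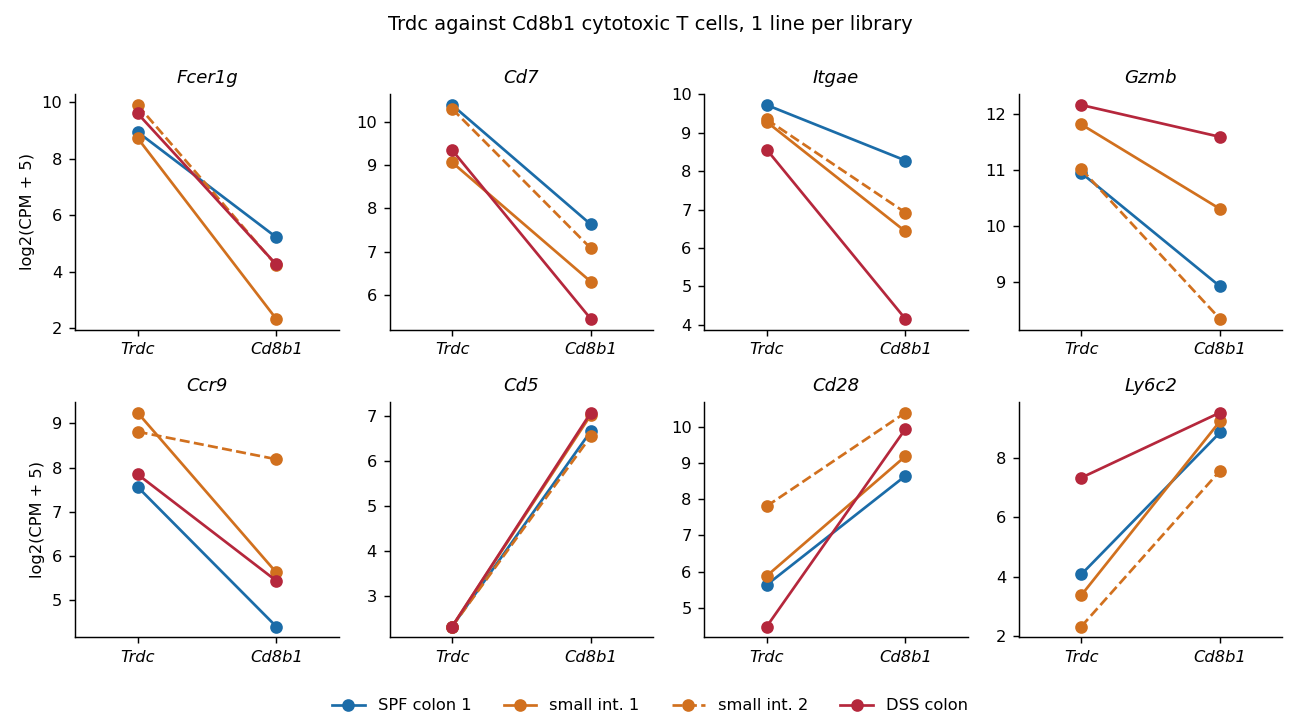
Levels of 8 genes as log2(CPM + 5) in Trdc cells and Cd8b1 cells of the same library, joined by a line for each of the 4 libraries with at least 10 cells of each subset. Fcer1g, Cd7, Itgae, Gzmb and Ccr9 are higher in the Trdc cells and Cd5, Cd28 and Ly6c2 lower in 4 of 4 libraries.

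The Cd8b1 cells also varied by library on their own. Their Gzmb level was 482 and 460 CPM in SPF colon, 121 and 101 in GF colon, 1262 and 321 in small intestine, 422 with antibiotics, 3077.5 with DSS and 1039 in the library labelled Nlrc4 deficient. The Cd8b1 cells of the SPF colon libraries were thus close in Gzmb, where all cytotoxic T cells of these libraries were at 1945 and 532. Their Ctla4 level was 193 and 620 CPM in SPF colon, 151 and 79.1 in GF colon and 934 with DSS, and their Ccr9 level 16.1 and 2.76 in SPF colon and 44.3 and 287 in small intestine. Lef1 in these cells was at 80.4 and 105 CPM in SPF colon, 363 and 335.5 in GF colon and 118 and 437 in small intestine.

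The 3 treated conditions had 1 library each, no test was run, and values are given with no replicate check. Genes with at least 10 UMIs were compared as log2 ratios of CPM + 5, and a ratio past 2-fold was counted. In the antibiotics library, 240 of 9026 genes (2.66%) were past 2-fold higher than the mean of SPF colon and 1070 (11.9%) past 2-fold lower, with a median log2 ratio of -0.05 over all genes. Without SPF colon library 2 the count of higher genes was 528. Cell cycle genes were past 2-fold lower in 12 of 14 and higher in none, with Mki67 at 12.8 CPM against 192 and 69.5 in SPF colon and the histone gene Hist1h2ap, one of many similar copies, at 16.0 against 411 and 378. The 14 cell cycle genes summed to 1572 CPM against 3963 and 1975.5 in SPF colon, so the lower sum was mostly against library 1. Naive and recirculating genes were past 2-fold higher in 4 of 11 (Lef1, Klf2, Tcf7 and Il7r) and lower in 1 (Dapl1) with a median of 0.88, Lef1 being at 148 CPM against 22.1 and 74.0. The list summed to 2811 CPM against 725 and 2480 in SPF colon, so the higher sum was mostly against library 1. Cd28, at 1216 CPM against 210 and 823, had a log2 ratio of 1.23, of 2.51 without SPF colon library 2 and of 0.56 without SPF colon library 1, which is under 2-fold. Gzmb, at 427 CPM against 1945 and 532, had a log2 ratio of -1.53, and of -0.31 without SPF colon library 1. Trdc was at 51.3 CPM against 268 and 93.6. The largest ratios were those of the neutrophil genes S100a8 (276 CPM against 21.1 and 1.51, log2 ratio 4.11) and S100a9 (4.04), and the 5 neutrophil genes summed to 594 CPM in this library against 1.92 to 207 in the other 8. Their part in the other ratios was not tested.

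In the DSS library, 186 of 10068 genes (1.85%) were past 2-fold higher than in SPF colon and 491 (4.88%) past 2-fold lower, with a median log2 ratio of -0.02. Without SPF colon library 1 these counts were 805 and 790, and without SPF colon library 2 they were 250 and 242. Ly6a was at 466 CPM against 66.4 and 113 in SPF colon, the highest of the 9 libraries, with a log2 ratio of 2.31, and S100a4, a calcium-binding protein of activated and memory T cells, at 991 against 195 and 260, a log2 ratio of 2.10. Prf1 was at 82.7 CPM against 23.2 and 22.7, and Ctla4 at 1078 against 403 and 606. All 14 cell cycle genes had a higher level with a median of 0.86, 5 of them past 2-fold, and Mki67 was at 288 CPM. Helper genes were past 2-fold higher in 4 of 6, including Tnfrsf4 (1.77, and 3.29 without SPF colon library 2), and Cd4 itself was at 78.8 CPM against 19.0 and 36.3, beside the 21.6% of these cells with a Cd4 UMI. Residency genes were past 2-fold lower in 5 of 13, with Itgae at 99.1 CPM against 625 and 109 (log2 ratio -1.84, and -0.13 without SPF colon library 1), and Ccl5 was at 3133 CPM against 9525 and 3992 (log2 ratio -1.11, and -0.35 without SPF colon library 1). The collagen gene Col3a1 (-4.51), Dcn (-4.21) and Adamdec1 (-4.57) were among the lowest ratios, and these are the genes that 2 cells of SPF colon library 2 carried. Ccr7 had a log2 ratio of -2.14, which was 0.13 without SPF colon library 2.

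The library labelled Nlrc4 deficient was set against the DSS library. Nlrc4 itself had 1254 UMIs over all its cells (19.9 CPM), against 304 UMIs (10.8 CPM) in the DSS library and 2.42 to 16.5 CPM in the others, which goes against the label. Counts near the 3′ end show a deletion only where it removes the transcript's end, which the labels do not say. In the cytotoxic T cells Nlrc4 had 0 or 1 UMI in every library. Here 214 of 9274 genes (2.31%) were past 2-fold higher than in the DSS library and 961 (10.4%) past 2-fold lower, with a median log2 ratio of -0.20. Cell cycle genes were past 2-fold lower in 12 of 14 with a median of -1.73, led by Hist1h2ap at 32.0 against 628 CPM, with Rrm2, a subunit of ribonucleotide reductase, at 14.7 against 154. Helper genes were past 2-fold lower in 5 of 6, with Cd4 at 25.4 CPM against 78.8. Ctla4 was at 241.5 against 1078 CPM (log2 ratio -2.14), the interleukin-2 receptor gene Il2ra at 37.4 against 184 and Gzmb at 914 against 2684. Ccl5 was at 11987 against 3133 CPM (log2 ratio 1.93), the highest of the 9 libraries, and the transcription factor Bach2, which holds T cells in a less differentiated state, at 81.4 against 15.9 (2.05). Naive and recirculating genes were past 2-fold higher in 4 of 10 with none lower. All 7 epithelial genes tested were past 2-fold lower, and the 11 on that list summed to 14.7 CPM against 127 CPM, so these libraries also differed in RNA of other cells. Its part in the ratios was not tested.

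**Figure D5:**
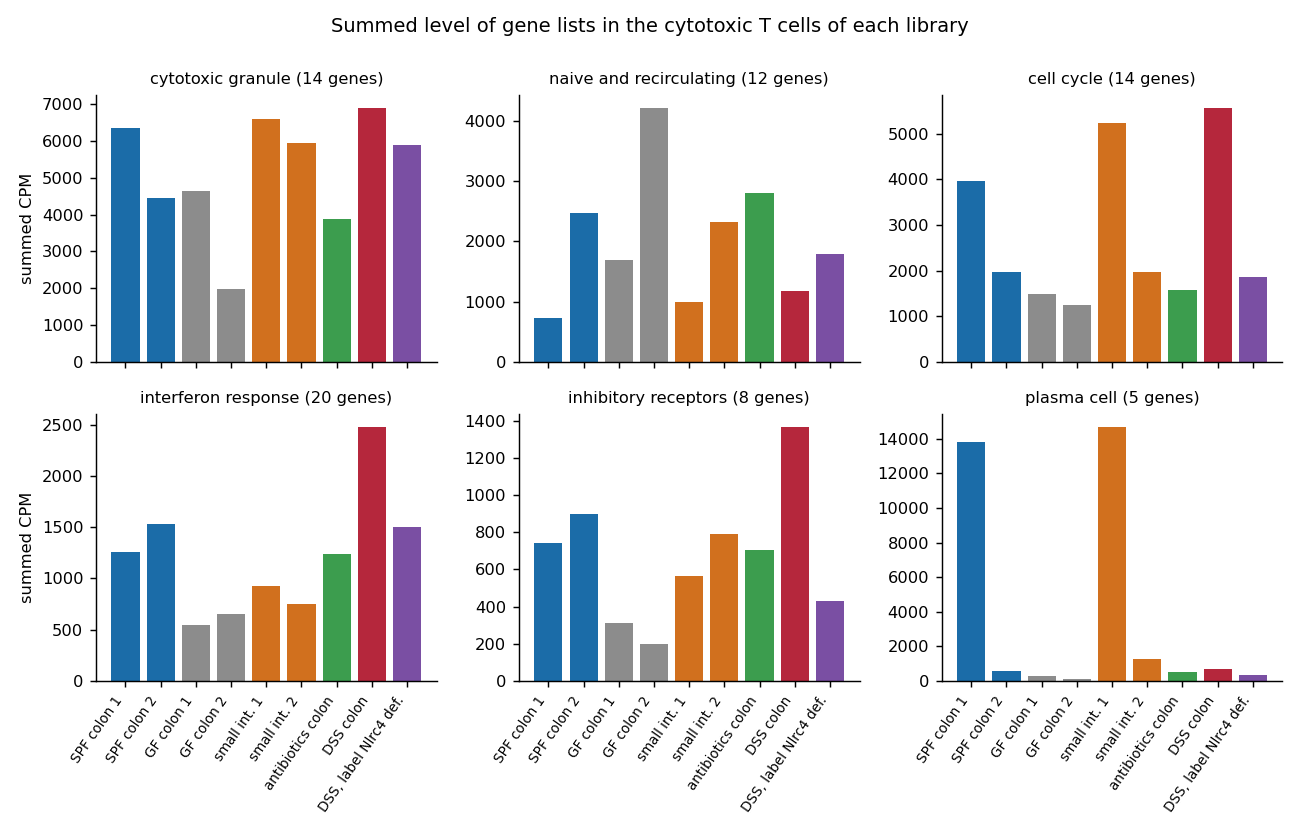
Summed CPM of 6 gene lists (cytotoxic granule, naive and recirculating, cell cycle, interferon response, inhibitory receptors and plasma cell) over the cytotoxic T cells of each of the 9 libraries, as bars from 0. The DSS library has the highest sums of cell cycle (5563), interferon response (2479) and inhibitory receptor genes (1368), GF colon library 2 has the highest naive sum (4215) and the lowest granule sum (1985), and plasma cell genes reach 13818 CPM in SPF colon library 1 and 14691 CPM in small intestine library 1.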

How the data were processed

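Per the labels and the matrix headers, the authors made UMI counts per gene and cell with Cell Ranger 3.0.2 and STAR 2.5.1b on mm10 from 3′ V3 libraries, and deposited these counts without normalization for 31053 genes. The deposited barcodes were taken as cells. Cells with over 15% mitochondrial UMIs or under 200 genes were removed. Counts were summed over the cells of a class in each library and compared in R 4.3.3 by the quasi-likelihood test of edgeR 4.0.16, after filterByExpr and TMM scaling. P-values were adjusted by Benjamini-Hochberg over every gene in the fit, and genes were called at a false discovery rate of 0.05. The 6 replicated libraries entered 1 fit with 3 residual degrees of freedom. Comparisons of classes had the library as a block and needed 10 cells of each class per library. An SE is the log2 fold change divided by the square root of F. CPM levels are not TMM scaled. Helper T cells met the same filters with at least 1 Cd4 UMI and 0 UMIs of Cd8a, Cd8b1 and Gzma. NK cells and B cells were further classes set by UMI thresholds (for B cells at least 2 Cd79a UMIs). Shares were compared by exact permutation tests, two-sided. Conditions with 1 library were described by log2 ratios with a pseudocount of 5 CPM. Intervals are exact at 95% and cover counting error only. Scrublet was run in scanpy 1.11.5. Scripts were tested on simulated data.

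Genes named were the 10 largest changes in each direction at 50 CPM or more among genes called (5 for single libraries), without rule genes, receptor and immunoglobulin segments and Gm or Rik names, plus up to 4 members with the smallest p of each of 22 gene lists (233 of 234 genes found), and markers. Others named (among them Lmna, Gm42418, Lars2, Rps27, Rpl12, Cd244, Hopx and the genes called only in an alternative) were chosen after their values were seen. The members and lists were chosen with earlier results of these data known. Alternatives were DESeq2 1.42.0, RLE factors, no filter on low counts, stricter cells (10% mitochondrial UMIs, 500 genes), at least 3 CD3 UMIs, 0 Lyz2 UMIs, called doublets removed, the block added or removed, a pseudocount of 20 CPM, each library left out and, chosen after the data were seen, no cells with a single Gzma UMI alone. Positions are those of GENCODE M21 on GRCm38, matched by gene ID. Results that need some genes are not reported here.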

Additional observations from a re-analysis of the deposited data

Results flagged for a closer look

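Igha, the constant gene of immunoglobulin A and a plasma cell transcript, was compared between cytotoxic and helper T cells within each library as a log2 ratio of CPM + 5. Both SPF colon libraries lay above 0, at 5800 against 691.5 CPM and 322 against 292, both small intestine libraries lay above 0 as well, at 5454 against 3522 and 791 against 789, and both GF colon libraries lay below 0, at 141 against 154 and 51.8 against 52.0. The mean ratio in SPF colon minus that in GF colon was 1.66, and the mean ratio in GF colon minus that in small intestine was -0.384. These were singled out because every library of one group went one way and every library of the other the opposite way. The difference was not tested, and the classes were nearly equal in SPF colon library 2, GF colon library 2 and small intestine library 2, so that the 1.66 rests on SPF colon library 1.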

How the results depend on the processing

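Only 2 libraries per group, 41 to 194 cells per library and SPF colon libraries that differ from each other limit what could be detected. Leaving out a library moved the share difference between -3.80 and -1.93 points for small intestine and between -2.61 and -0.741 for GF colon, and the Trdc share difference between -10.8 (without SPF colon library 2) and 15.8 for small intestine, -2.49 without small intestine library 1, and between -30.9 and -4.24 for GF colon. Genes called higher in small intestine were 4 with no filter and 0 to 1 with a library left out, and lower 2 with DESeq2, 82 with no filter, 1 with the replicate block and 0 to 11 with a library left out. In GF colon they were 5 higher with DESeq2, 21 with no filter and 2 with the block (0 with each library left out), and 2, 97 and 6 lower (0 to 5). The 5 lower without SPF colon library 1 were Col3a1, Col1a2, Mgp, Dcn and Sparc. Against helper T cells, 456 were higher with no filter and 82 with no library block, and 94 lower with no block; a library left out gave 158 to 218 and 258 to 317. Between Trdc and Cd8b1 cells the counts were 110 and 67 with no filter and 20 and 15 with no block, and 25 to 42 and 17 to 35 with a library left out. A pseudocount of 20 CPM left 51 higher and 206 lower with antibiotics, 42 and 133 with DSS, and 69 and 255 in the library labelled Nlrc4 deficient. With 1 SPF colon library left out these were 210 to 528 and 780 to 977 with antibiotics and 250 to 805 and 242 to 790 with DSS, and with 0 Lyz2 UMIs 284 were higher with DSS. Thbs1 with antibiotics went from 1.72 to -0.82 with 0 Lyz2 UMIs, and Ccr7 with DSS lay between -2.99 and 0.13 with 1 SPF colon library left out, 0.13 being without library 2. The causes were not tested. Replicate numbers had deviations that correlated at 0.414 (SPF and GF colon), 0.274 (SPF colon and small intestine) and 0.110 (GF colon and small intestine) over 7944 genes, but nothing in the labels ties them. With the block the calls in GF colon were Lef1 and Tdrp higher and Ctla4, Jchain, Plac8, Trdc, Igha and Ighg2b lower, and in small intestine Ighg2b lower. Without cells that rested on a single Gzma UMI, an alternative chosen after seeing the data, every count of calls stayed within 1.5 times. Of values for single genes, 1919 kept direction and, where tested, side of the threshold, 61 lost their call and 36 gained one. A further 24 moved in size, and 2 reversed direction, Thbs1 with antibiotics and Ccr7 with DSS.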
